A study of Mus musculus with 19 samples.

Results

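Mast cell genes were followed across wild-type mouse colon and colon tumours of 2 genotypes. The 10 genes were chosen by symbol, with earlier results of these data known. They are the chymases Mcpt1, Mcpt2, Mcpt4 and Cma1, the carboxypeptidase Cpa3 and the tryptases Tpsb2 and Tpsab1. The others are the IgE receptor subunits Fcer1a and Ms4a2 and the stem cell factor receptor Kit. All 10 stand among 32694 gene symbols in the deposited table, and all passed the filter on low values that left 18445 genes for testing. Mast cells arise from bone marrow progenitors and mature in tissue under stem cell factor, which signals through Kit. They store proteases in granules bound to proteoglycan, and antigen that cross-links IgE on the high-affinity receptor empties the granules. In mice, mucosal mast cells of the gut epithelium and lamina propria are known for Mcpt1 and Mcpt2, whereas the connective tissue type of the submucosa and muscle is known for Mcpt4, Cma1, Cpa3 and the tryptases.

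The mice were 12 weeks old, and each library came from a different mouse. Normal colon of wild-type mice (WT) came from 3 females and 2 males. Tumours of mice labelled Apc heterozygous, in which Villin-Cre removed 1 allele of Apc, came from 3 females and 4 males (Apc tumours). Tumours of mice labelled Apc heterozygous with Tgif1 and Tgif2 null, made with the same Cre, also came from 3 females and 4 males (ApcTT tumours). Both tumour groups thus share the Apc deletion, and Tgif1 and Tgif2, a pair of homeodomain repressors, are the labelled difference between them. Villin-Cre is known for its activity in the intestinal epithelium; which cells carried the deletions was not tested. No strain is named in the labels. RNA came from colon tissue and from single tumours, 1 per mouse, with all their cell types, so more mast cells and more RNA per mast cell cannot be told apart.

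Library totals lay between 34417808 and 44732717 normalized counts, with 1 count worth between 0.74 and 1.44. Tgif1 lay between 2785 and 4964 normalized counts in Apc tumours and between 251 and 654 in tumours labelled ApcTT. Tgif2 lay between 476 and 764 and between 2141 and 3107, so its whole-gene total went against the label. The labels do not say which part was deleted and transcript left on either side of it stays in the total, so these totals check nothing for Tgif2, and every direction below that names ApcTT tumours rests on the label. The 8 smooth muscle markers summed to between 200900 and 300000 normalized counts in wild-type colon and to between 10040 and 22500 in the tumours, with no overlap, so the wild-type tissue differed from the tumours in its muscle RNA. The 6 leukocyte markers, Ptprc (CD45) among them, summed to between 3266 and 9676, 2842 and 6060, and 3411 and 6636 in the 3 groups.

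Across the groups, 7 of the 10 genes rose in Apc tumours over wild-type colon, where 23.9% of all tested genes rose, and 8 rose in ApcTT tumours, where 24.8% did. From Apc to ApcTT tumours 6 of the 10 rose, where 7.88% of all tested genes did. Kit fell in all 3 comparisons. Cma1 fell in Apc tumours and was back near its wild-type level in ApcTT tumours. The difference between the tumour genotypes was called for all 10 genes among males and for none among females. Of all tested genes, 8.77% were higher and 9.8% lower among males, and 27.7% differed among females. By test this difference depended on sex for Mcpt1, Mcpt2 and Mcpt4, as for 23.6% of all tested genes in either direction. Mcpt1 and Mcpt2 were higher in ApcTT than in Apc tumours among males, and not among females. The plot of every library shows these patterns.

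**Figure D1:**
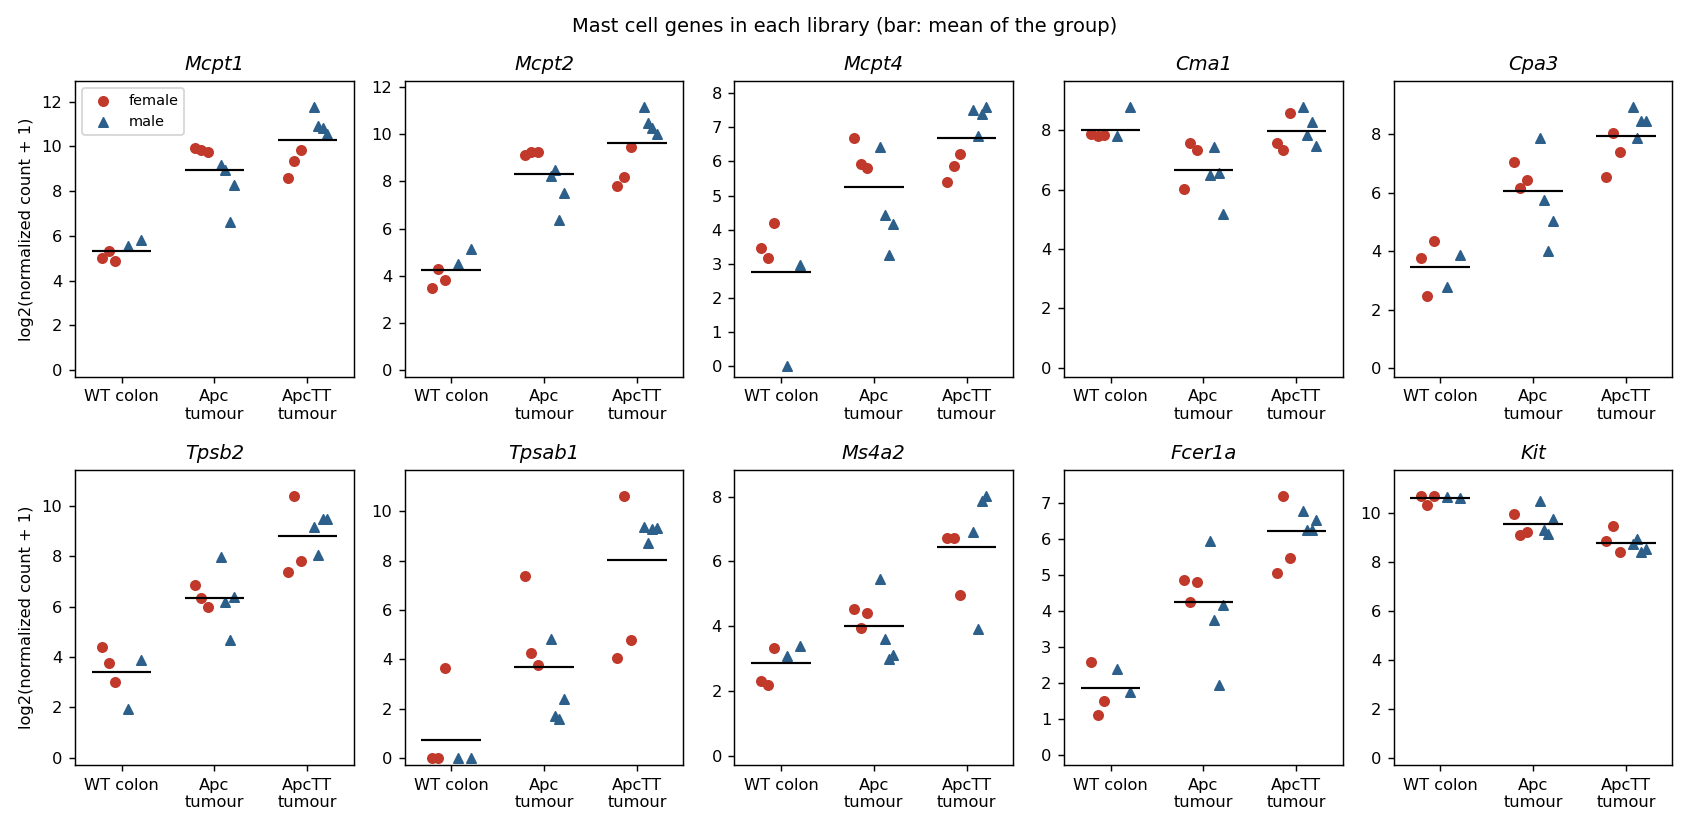
Log2(normalized count + 1) of each of the 10 genes (vertical axis of each panel) in wild-type colon (WT, 5 libraries), Apc tumours (7) and ApcTT tumours (7), with 1 point per library, circles for females, triangles for males and a bar at the mean of the group. Mcpt1 lies between 27.8 and 55.8 normalized counts in wild-type colon and between 98.5 and 3426 in the tumours, whereas Kit is highest in wild-type colon.

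The genes lie in a few clusters. On chromosome 14 (GRCm38) stand Cma1 (55941451 to 55944675), Mcpt1 (56017971 to 56020384), Mcpt2 (56042041 to 56044642) and Mcpt4 (56059629 to 56062313), with 15.0 kb between Mcpt2 and Mcpt4 and 21.7 kb between Mcpt1 and Mcpt2. Tpsab1 (25343245 to 25345562) and Tpsb2 (25366305 to 25369098) stand on chromosome 17, 20.7 kb apart. Cpa3 is on chromosome 3 (20215620 to 20242181), Fcer1a on chromosome 1 (173221284 to 173227214), Ms4a2 on chromosome 19 (11615523 to 11623719) and Kit on chromosome 5 (75574916 to 75656722). Of the windows of 75 bases, the read length, in their annotated transcripts, none of Mcpt1, Mcpt2, Cpa3, Tpsb2, Tpsab1, Fcer1a or Kit occurs letter for letter in a transcript of another gene. For Mcpt4 26 of 1034 windows do, all in Cma2, for Cma1 17 of 1016 and for Ms4a2 38 of 3103. Reads with mismatches could still be shared within these protease families.

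Proximal promoters were read because several of the genes moved together and because the factor Gata2 is known to act on mast cell genes. RefSeq windows from 250 bases before to 50 after the start (GRCm38.p6) were matched by symbol for 7 of the 10 genes, with 2 windows for Kit. A GATA core, TGATAA or AGATAA on either strand, was present for 5 of the 7 (Mcpt1, Mcpt4, Cpa3, Fcer1a and Ms4a2) and in 18.6% of 32841 promoters of the same length. The 150 bases before the start of 3 of these genes are shown 5′ to 3′ on the gene's strand, with the GATA core and the TATA box (TATAAAA) in capitals, because the spacing of the 2 elements is the same in Mcpt1 and Mcpt4.
Mcpt1, chr14:56017814-56017963, strand +: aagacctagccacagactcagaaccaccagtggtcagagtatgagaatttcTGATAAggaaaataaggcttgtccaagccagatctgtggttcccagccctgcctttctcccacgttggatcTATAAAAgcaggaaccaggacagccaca
Mcpt4, chr14:56062311-56062460, strand -: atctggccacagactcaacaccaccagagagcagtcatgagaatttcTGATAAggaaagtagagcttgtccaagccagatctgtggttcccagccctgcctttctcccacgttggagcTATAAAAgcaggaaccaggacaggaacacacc
Cpa3, chr3:20242182-20242331, strand -: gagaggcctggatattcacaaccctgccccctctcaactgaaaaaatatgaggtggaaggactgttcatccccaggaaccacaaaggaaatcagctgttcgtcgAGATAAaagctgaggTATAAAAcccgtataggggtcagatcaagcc
The core began 99 bases before the start in Mcpt1, 103 before it in Mcpt4 and 46 before it in Cpa3, and the TATA box 28, 32 and 31 bases before it. Over 250 bases before the start, 81.9% of the aligned columns were identical between Mcpt1 and Mcpt4, with 1 unbroken run of 53 bases, against 48.1% between Mcpt1 and Cpa3. The TATA box was present for 4 of the 7 genes and in 3.27% of promoters, read on the gene's strand only. On both strands, the E-box CANNTG was present for 4 (72.3% of promoters) and TGTCA, the core that Tgif proteins recognise, for 5 (45.4%). The palindromic Smad box GTCTAGAC, in 0.213% of promoters, was present for 0 of the 7. These matches describe the letters only.

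Mcpt1 and Mcpt2, the chymases of mucosal mast cells, had the highest levels of the 10 per kilobase of exon in tumours. Mcpt1 had 31.5, 38.8, 27.8, 46.0 and 55.8 normalized counts in the 5 wild-type libraries. In Apc tumours it had 975, 899.7 and 852 in the females and 573, 492, 98.5 and 311 in the males. In ApcTT tumours it had 383, 653 and 922 in the females and 3426, 1918, 1813 and 1506 in the males. All 14 tumours lay above all 5 wild-type libraries, and the tumour genotypes overlapped. Mcpt1 rose by 3.58 on the log2 scale in Apc tumours over wild-type colon (SE 0.543, limma adjusted p = 2.42e-05) and by 4.91 in ApcTT tumours (SE 0.543, limma adjusted p = 4.3e-07). The difference of 1.33 between the tumour genotypes did not pass the threshold (SE 0.491, limma adjusted p = 0.0721). All log2 values are on the log2(normalized count + 1) scale, which understates the change of low genes, and the threshold was an adjusted p of 0.05.

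Mcpt2 followed Mcpt1 closely. It lay between 10.1 and 34.2 normalized counts in wild-type colon. In Apc tumours it had 551, 603 and 617 in the females and 303, 363, 82.4 and 181 in the males, and in ApcTT tumours 221, 289 and 715 in the females and 2280, 1414, 1248 and 1042 in the males. The order of the groups and sexes was that of Mcpt1, and again no tumour overlapped wild-type colon. The rises over wild-type colon were 4.01 in Apc tumours (SE 0.569, limma adjusted p = 1.1e-05) and 5.32 in ApcTT tumours (SE 0.569, limma adjusted p = 2.83e-07), and the difference between the tumours was 1.30 (SE 0.514, limma adjusted p = 0.0924). Mcpt2 had 0.663 ± 0.111 normalized counts per count of Mcpt1 in Apc tumours (SD, n = 7), 0.654 ± 0.112 in ApcTT tumours (SD, n = 7) and 0.468 ± 0.103 in wild-type colon (SD, n = 5). The ratio thus stayed between 0.32 and 0.837 in all 19 libraries, while Mcpt1 itself ran from 27.8 to 3426.

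Mcpt4 and Cma1 are the chymases of the connective tissue type, and they did not behave alike. Mcpt4 had 10.1, 7.99, 17.4, 0 and 6.84 normalized counts in wild-type colon, 8.52 to 102 with a median of 55.5 in Apc tumours and 41.3 to 192 with a median of 106 in ApcTT tumours. It rose by 2.58 in Apc tumours (SE 0.674, limma adjusted p = 0.00368) and by 4.01 in ApcTT tumours (SE 0.674, limma adjusted p = 5.81e-05), and differed by 1.43 between them (SE 0.609, limma adjusted p = 0.122). Cma1 had 235, 222, 227, 224 and 437 in wild-type colon. It fell to between 35.5 and 190.3 in Apc tumours, with a median of 92.8, and none of these 7 reached a wild-type library. In ApcTT tumours it lay between 162 and 439.7, with a median of 229, across the wild-type range. Cma1 fell by 1.36 in Apc tumours (SE 0.38, limma adjusted p = 0.00599) and was 1.32 higher in ApcTT than in Apc tumours (SE 0.343, limma adjusted p = 0.0119), while ApcTT tumours and wild-type colon differed by -0.04 (SE 0.38, limma adjusted p = 0.946). Per count of Cpa3, Cma1 had between 11.9 and 48.5 counts in wild-type colon and between 0.386 and 6.12 in the tumours. The fall in Apc tumours was -0.69 with the distal colon markers as a covariate (limma adjusted p = 0.159) and -0.85 in females alone (limma adjusted p = 0.139), and it passed in neither.

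Cpa3 encodes the carboxypeptidase that shares the granule with the chymases. It had 12.6, 4.57, 19.1, 5.75 and 13.7 normalized counts in wild-type colon, 15.2 to 232 with a median of 70.9 in Apc tumours and 92.4 to 485 with a median of 259 in ApcTT tumours. Every ApcTT tumour lay above every wild-type library, and the lowest Apc tumour, replicate 6, lay within the wild-type range. Cpa3 rose by 2.59 in Apc tumours (SE 0.558, limma adjusted p = 0.000778), by 4.50 in ApcTT tumours (SE 0.558, limma adjusted p = 1.64e-06) and by 1.91 from Apc to ApcTT tumours (SE 0.505, limma adjusted p = 0.0134).

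Tpsb2, the major mouse tryptase, had 20.2, 12.6, 6.96, 2.87 and 13.7 normalized counts in wild-type colon, 24.6 to 249 with a median of 80.7 in Apc tumours and 164 to 1352 with a median of 575 in ApcTT tumours. Its groups overlapped only between the tumour genotypes, where Apc tumour replicate 4, with 249, lay above the 2 lowest ApcTT tumours. Tpsb2 rose by 2.96 (SE 0.569, limma adjusted p = 0.000271) and 5.44 (SE 0.569, limma adjusted p = 2.01e-07) over wild-type colon and by 2.48 from Apc to ApcTT tumours (SE 0.515, limma adjusted p = 0.00264). That was the smallest adjusted p of the 10 genes between the tumour genotypes.

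Tpsab1, the second tryptase, is known to be disrupted in the C57BL/6 strain. It was listed at 0 in 4 wild-type libraries and at 11.5 in the fifth, replicate 3. In Apc tumours it had 168 in replicate 1 and between 1.99 and 27.7 in the other 6. In ApcTT tumours it had 15.8 and 26.9 in female replicates 1 and 3 and between 418 and 1583 in the other 5. Both tumour genotypes thus held libraries with little and with much Tpsab1. Tpsab1 rose by 4.32 from Apc to ApcTT tumours (SE 1.07, limma adjusted p = 0.00907) and by 7.34 over wild-type colon (SE 1.19, limma adjusted p = 3.92e-05). Its rise of 3.02 in Apc tumours (SE 1.19, limma adjusted p = 0.042) lost the call without any 1 of wild-type replicates 1, 2, 4 and 5 or of Apc tumour replicates 1 to 4, with values between 2.28 and 3.04. It was also lost with a pseudocount of 5 (1.61, limma adjusted p = 0.194), with the distal colon covariate (2.08, limma adjusted p = 0.257), in females alone (limma adjusted p = 0.0987) and without trend and robust moderation (limma adjusted p = 0.0504). Counts of Tpsab1 per count of Tpsb2 lay between 0.858 and 1.66 in 7 libraries and between 0 and 0.225 in the other 12, with none between; the split was seen in the values and is given as a description, with no test. The 7 were wild-type replicate 3, Apc tumour replicate 1 and ApcTT tumour replicates 2, 4, 5, 6 and 7. The plot of both tryptases shows these as a pair of bands.

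**Figure D2:**
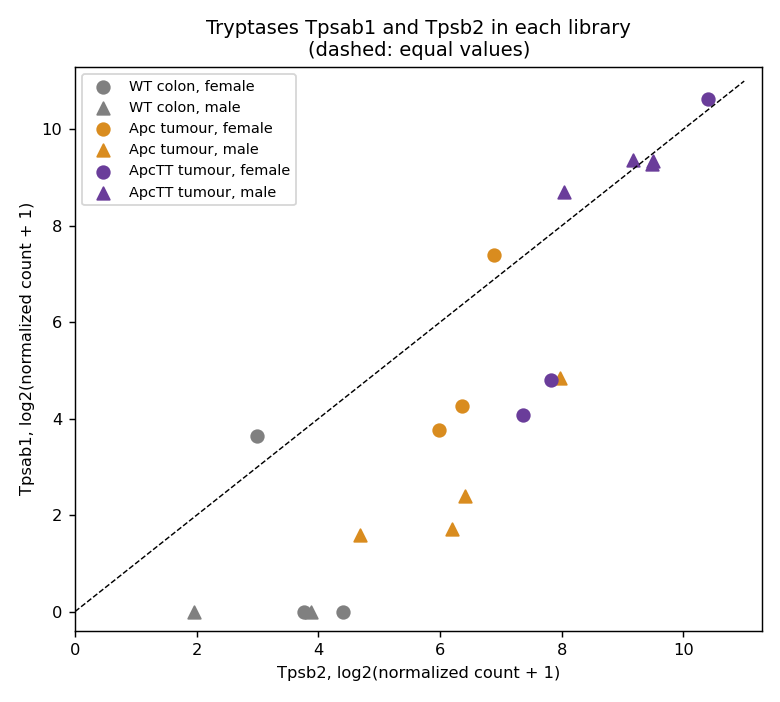
Log2(normalized count + 1) of Tpsab1 (vertical axis) against Tpsb2 (horizontal axis), with 1 point per library, colours for the groups, circles for females and triangles for males; the dashed line marks equal values. In 7 libraries Tpsab1 lies at 0.858 to 1.66 times Tpsb2, near the line, and in the other 12 at 0.225 times Tpsb2 or less.

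Fcer1a encodes the IgE-binding chain of the high-affinity receptor and Ms4a2 its signal-amplifying chain. Fcer1a had 4.99, 1.13, 1.81, 4.26 and 2.37 normalized counts in wild-type colon, 2.81 to 60.4 with a median of 18.0 in Apc tumours and 32.2 to 147 with a median of 76.1 in ApcTT tumours. Wild-type values stood for a handful of reads. Fcer1a rose by 2.37 in Apc tumours (SE 0.535, limma adjusted p = 0.00116), by 4.36 in ApcTT tumours (SE 0.535, limma adjusted p = 1.42e-06) and by 1.99 between the tumours (SE 0.484, limma adjusted p = 0.00797). Ms4a2 had 3.93, 3.55, 9.02, 7.45 and 9.45 in wild-type colon, 6.87 to 42.7 with a median of 14.5 in Apc tumours and 14.1 to 259 with a median of 105 in ApcTT tumours. Its difference of 1.12 in Apc tumours did not pass (SE 0.616, limma adjusted p = 0.14), whereas it rose by 3.56 in ApcTT tumours (SE 0.616, limma adjusted p = 7.97e-05) and by 2.44 between the tumours (SE 0.557, limma adjusted p = 0.00522). In males alone the rises in Apc tumours did not pass for Fcer1a (1.87, limma adjusted p = 0.105) or Cpa3 (2.35, limma adjusted p = 0.0539), and in females alone Ms4a2 did (1.70, limma adjusted p = 0.0276), as it did in a fit of only the groups compared (1.16, limma adjusted p = 0.0443). The 2 chains were not in a fixed ratio: counts of Ms4a2 per count of Fcer1a lay between 0.185 and 3.26 in ApcTT tumours.

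Kit was the one gene of the set that fell in both tumour genotypes. It had 1634, 1301, 1659, 1625 and 1578 normalized counts in wild-type colon, 547 to 1438 with a median of 624 in Apc tumours and 335 to 710.3 with a median of 426 in ApcTT tumours. Only Apc tumour replicate 4 reached the wild-type range. Kit fell by 1.04 in Apc tumours (SE 0.232, limma adjusted p = 0.00104), by 1.84 in ApcTT tumours (SE 0.232, limma adjusted p = 1.96e-06) and by 0.80 between them (SE 0.21, limma adjusted p = 0.0125). Kit is also a gene of interstitial cells of Cajal, the pacemakers of the gut wall, and of deep crypt secretory cells of the colon. Of their other markers, Etv1 fell from 402 to 61.2 and 49.3 (log2 differences from wild-type colon -2.73 and -3.06, limma adjusted p = 1.93e-07 and 2.94e-08), and Agr2, a folding enzyme of secretory cells, from 29690 to 14240 and 6353 (-1.19 and -2.37, limma adjusted p = 0.00191 and 1.09e-06). Between the tumour genotypes Agr2 fell by 1.18 (limma adjusted p = 0.00366) and Spdef, a secretory cell factor, by 1.58 (limma adjusted p = 0.00506), while the chloride channel Ano1, Etv1 and Reg4, a lectin of deep crypt cells, did not pass (limma adjusted p = 0.683, 0.428 and 0.579, with a difference of -0.32 for Reg4). The part of these cells in the fall of Kit was not tested.

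**Figure D3:**
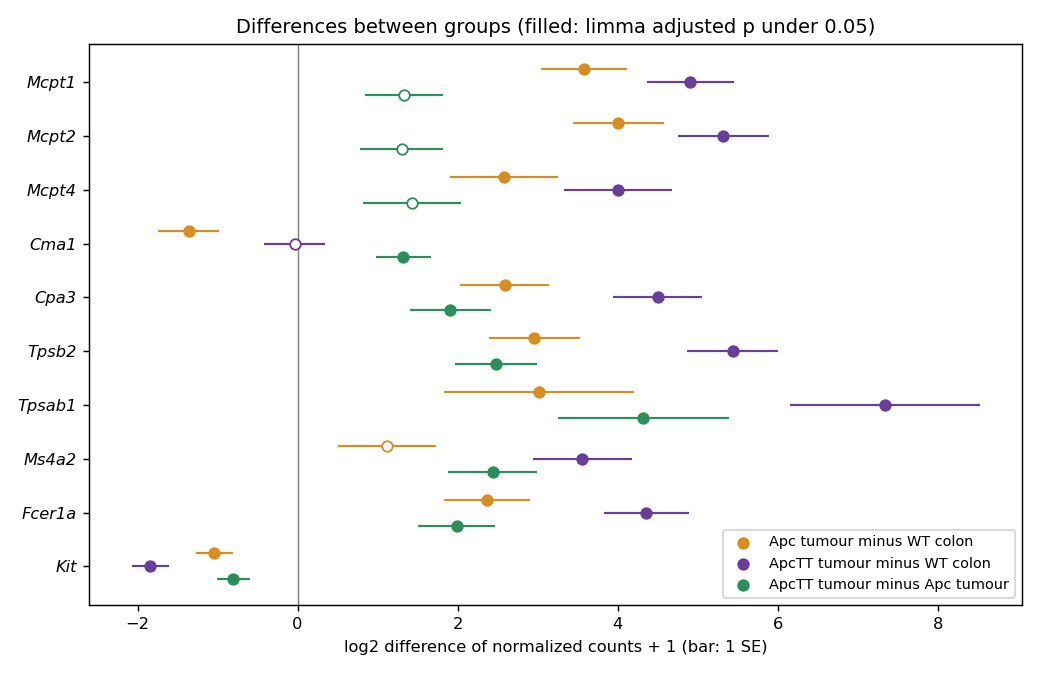
Log2 difference of each gene (rows) in the 3 comparisons, with bars of 1 SE from the limma fit to 19 libraries; filled points have an adjusted p under 0.05. Kit lies left of 0 in each comparison, Cma1 at -1.36 in Apc tumours and at -0.04 in ApcTT tumours against wild-type colon, and the other 8 genes lie right of 0.

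The counts are read against all genes. In Apc tumours against wild-type colon 7 of the 10 rose and 2 fell, where 23.9% of the 18445 tested genes rose and 25.2% fell. In ApcTT tumours 8 rose and 1 fell, where 24.8% of genes rose and 25.5% fell. The 5 wild-type libraries serve in both of these comparisons, which are therefore not independent. Between the tumour genotypes 6 rose and 1 fell, where 7.88% of genes rose and 8.76% fell. The median log2 difference of the 10 was 2.59, 4.43 and 1.67 in these comparisons, and that of all tested genes was -0.012, 0.002 and -0.014. Groups did not overlap, with tumours higher, for 3 of the 10 in Apc tumours (14% of all tested genes) and 8 of the 10 in ApcTT tumours (14.1%). They did not overlap, with tumours lower, for 1 of the 10 in each (15.4% and 16.5%), Cma1 in Apc and Kit in ApcTT tumours. All 10 overlapped between the tumour genotypes, where 2.3% of genes lay wholly higher and 1.77% wholly lower. Mcpt1, Mcpt2, Cma1 and Kit reached 10 normalized counts in all 5 wild-type libraries. The other 6 passed the filter only with the help of the tumours, so the shares of the 10 describe these genes and support nothing further.

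The difference between the tumour genotypes depended on sex for the mucosal chymases. In males Mcpt1 was 2.75 higher in ApcTT than in Apc tumours (SE 0.421, limma adjusted p = 0.000398) and Mcpt2 2.82 higher (SE 0.419, limma adjusted p = 0.000317). In females the differences were -0.57 (SE 0.486, limma adjusted p = 0.409) and -0.72 (SE 0.484, limma adjusted p = 0.282). All 10 genes passed in males, 9 higher and 1 lower, where 8.77% of all tested genes were higher and 9.8% lower, and 0 of the 10 passed in females, where 27.7% of genes did by the same limma fit and where Ms4a2 and Tpsb2 had an unadjusted p under 0.05. The effect in males minus that in females was 3.32 for Mcpt1 (SE 0.643, limma adjusted p = 0.00234), 3.55 for Mcpt2 (SE 0.641, limma adjusted p = 0.00163) and 3.05 for Mcpt4 (SE 0.929, limma adjusted p = 0.0259). The call of Mcpt4 was lost without Apc tumour replicate 1 (2.77) or 6 (2.61) or without ApcTT tumour replicate 1 (2.84). It was also lost with a pseudocount of 0.25 (3.10, limma adjusted p = 0.0687). With the smooth muscle markers as a covariate it was 2.99 and did not pass (limma adjusted p = 0.0894). Mcpt1, Mcpt2 and Mcpt4 are 3 of 10 genes. Of all tested genes 23.6% had such a sex difference in either direction and 11.6% had one in this direction (11.9% in the other). The share of the set was near that of all genes in either direction and above that in this direction. Mcpt1 and Mcpt2 moved together, so this share supports nothing further.

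Within each tumour genotype the sexes of the mucosal chymases were in opposite order. Males were lower than females in Apc tumours, by -1.57 for Mcpt1 (SE 0.455, limma adjusted p = 0.0425) and -1.55 for Mcpt2 (SE 0.453, limma adjusted p = 0.0442). They were higher in ApcTT tumours, by 1.75 (SE 0.455, limma adjusted p = 0.0308) and 2.00 (SE 0.453, limma adjusted p = 0.0183). Of the 10 genes, Mcpt1 and Mcpt2 alone passed in each. Of all tested genes 8.33% differed between the sexes in Apc tumours and 7.54% in ApcTT tumours, in either direction. In wild-type colon, where 0.0651% of genes did, Mcpt1 and Mcpt2 differed by 0.63 and 0.965 (limma adjusted p = 0.669 and 0.481). The summed leukocyte markers lay between 5173 and 6060 in female and 2842 and 3691 in male Apc tumours, with no overlap. In ApcTT tumours they lay between 3411 and 6324 in females and 4616 and 6636 in males, and the sexes overlapped. With the leukocyte level as a covariate, a setting added after the data were seen, the sex difference was 2.56 for Mcpt1 (SE 0.83, limma adjusted p = 0.0564). It was 2.93 for Mcpt2 (limma adjusted p = 0.0373) and 3.06 for Mcpt4 (SE 1.27, limma adjusted p = 0.121). Without the covariate the SE was 0.643 for Mcpt1 and 0.929 for Mcpt4. Sex and leukocyte level cannot be told apart in Apc tumours, and the part of leukocytes in the sex difference was not tested.

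The other 7 genes showed no called sex difference. For Tpsb2 the genotype difference was 2.13 in females (SE 0.794, limma adjusted p = 0.0549) and 2.74 in males (SE 0.688, limma adjusted p = 0.0114), and the effect in males minus that in females was 0.61 (SE 1.05, limma adjusted p = 0.712). For Ms4a2 these were 1.83 (limma adjusted p = 0.123) and 2.89 (limma adjusted p = 0.0134), with a difference of 1.06 (SE 1.14, limma adjusted p = 0.535). Cpa3 and Tpsab1 had sex differences of 1.98 (SE 0.953, limma adjusted p = 0.139) and 5.18 (SE 1.86, limma adjusted p = 0.0528). Without Apc tumour replicate 4 both passed, at 2.72 and 5.92 (limma adjusted p = 0.0143 and 0.0293), which raised the number of the 10 called from 3 to 5. Tpsab1 also passed without ApcTT tumour replicate 2 (7.25) or wild-type replicate 3 (5.18), and with quantile normalization (5.38, limma adjusted p = 0.0445). With 3 to 4 tumours per cell of the design, a p above the threshold does not show that the sexes were alike.

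**Figure D4:**
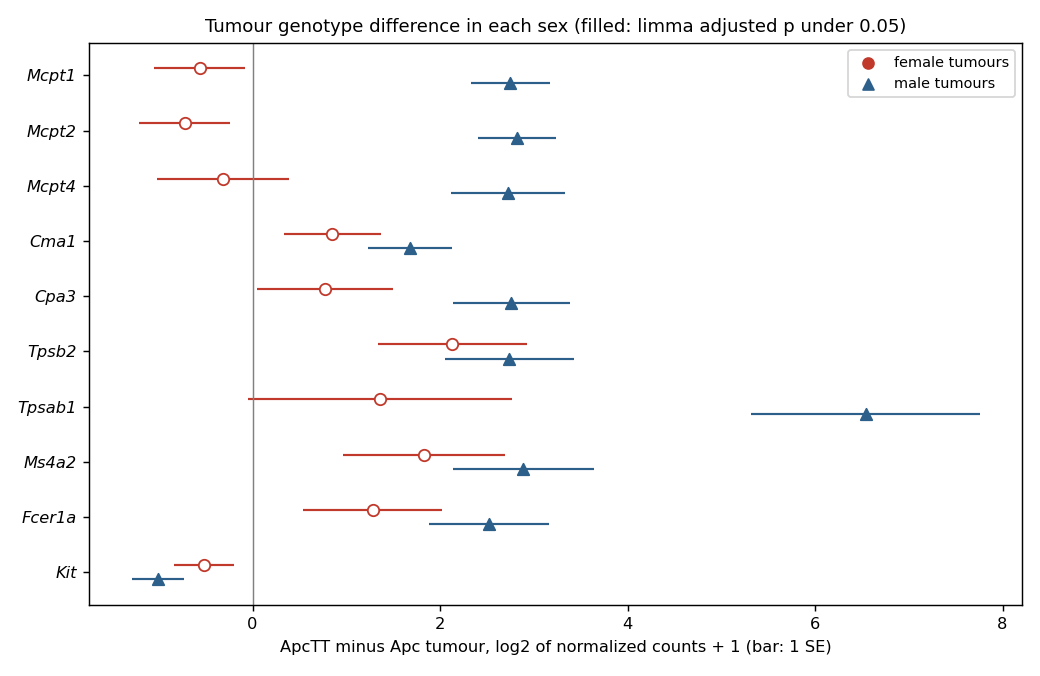
Log2 difference of ApcTT minus Apc tumours for each gene (rows) in females (circles) and males (triangles), with bars of 1 SE from a limma fit with 1 mean per group and sex; filled symbols have an adjusted p under 0.05. Mcpt1, Mcpt2 and Mcpt4 lie at -0.57, -0.72 and -0.31 in females and at 2.75, 2.82 and 2.73 in males, while the female and male values of Tpsb2, 2.13 and 2.74, lie within 1 SE of each other.

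Levels of different genes were compared per kilobase of annotated exon. In wild-type colon Cma1 came first, with 247 ± 86.5 normalized counts per kb (SD, n = 5). Kit came next with 175 ± 16.5, then Mcpt1 with 39.5 ± 11.1. The spread of Cma1 came mostly from replicate 5, with 437 normalized counts against a median of 227. Mcpt2 followed with 18.3 ± 8.83, and Mcpt4, Cpa3 and Tpsb2, at 7.64 ± 5.65, 7.35 ± 3.97 and 7.06 ± 4.16, could not be ordered. Fcer1a had 2.92 ± 1.65, Ms4a2 2.38 ± 0.991 and Tpsab1 a mean of 1.1 from 1 library. In ApcTT tumours Mcpt1 came first, with 1496 ± 1009 per kb (SD, n = 7), then Mcpt2 with 971 ± 673 and Tpsb2 with 360.3 ± 261. Tpsab1, Cma1 and Cpa3 followed with 271 ± 252, 248 ± 100.9 and 182 ± 86.3, neighbours that did not differ beyond their spread, and Mcpt4, Fcer1a, Kit and Ms4a2 lay between 43.8 and 105. In Apc tumours the first places were held by Mcpt1, with 592 ± 322, and Mcpt2, with 364 ± 199.8, and the other 8 genes lay between 6.36 (Ms4a2) and 106 (Cma1).

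Across the 19 libraries, after the mean of each group was taken out of the log2 values, Mcpt1 and Mcpt2 had a Pearson's r of 0.97. Cpa3 had r = 0.80 with both Mcpt4 and Fcer1a, 0.74 with Tpsab1 and 0.69 with Tpsb2. Cma1 had its highest r with Mcpt2, 0.54, and values between -0.14 and 0.22 with Cpa3, both tryptases, Ms4a2 and Fcer1a. Kit had r = 0.62 with Fcer1a, 0.50 with Tpsb2 and -0.51 with Cma1. These values are given as a description: the libraries share their scaling, and deviations of both sexes are in them. Among 13107 other genes with a mean of at least 50, those most like the mean of Mcpt1 and Mcpt2 were Psma1, a proteasome subunit (r = 0.848), Ifi204, an interferon-induced gene (0.838), Pnp, a purine enzyme (0.837), and Fam98b (0.834). Apoo, Rab30, Cetn3, Slfn8, Cyb5r4 and Klra2 followed, between 0.814 and 0.828. None of these 10 is a known mast cell protease or receptor, but the genes of the set were left out of this search. Low mast cell genes such as Cma2, with a mean of at most 18.9 in any group, lay under its limit of 50. Their absence therefore says nothing about mast cell genes. Within the set Mcpt1 had r = 0.70 with Cpa3 and 0.62 with Fcer1a, and Mcpt2 had 0.59 and 0.44.

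Other genes of the mast cell programme were counted from lists fixed by name, with earlier results of these data known. The counts of each list below are read against all tested genes. Of these 23.9% rose and 25.2% fell in Apc tumours, and 24.8% and 25.5% in ApcTT tumours. Between the tumours 7.88% rose and 8.76% fell. The list counts describe the listed genes and support nothing further. Of 6 tested genes among 10 other granule proteases, 2 rose and 2 fell against wild-type colon in each tumour genotype. Between the tumours 0 rose and 2 fell, Tpsg1 among them. Cma2, a chymase next to the cluster that shares windows with Mcpt4, went from 0.6 to 15.9 in Apc and 18.9 in ApcTT tumours and rose by 3.39 and 3.50 (limma adjusted p = 1.44e-05 and 7.9e-06). Gzmb, a granzyme of cytotoxic and some mast cells, rose by 2.44 and 1.90 (limma adjusted p = 0.000157 and 0.00145). The transmembrane tryptase Tpsg1 went the other way from its paralogs, from 563 to 276 and 128 normalized counts, with differences of -1.25 and -2.28 (limma adjusted p = 0.0041 and 1.06e-05) and of -1.04 between the tumours (limma adjusted p = 0.0221). Ctss, a cathepsin of antigen-presenting cells, fell by 1.43 and 1.19 (limma adjusted p = 1.28e-07 and 8.63e-07). The fall of Tpsg1 between the tumours lost its call in a fit of only the groups compared (limma adjusted p = 0.0539), in females alone (-0.55, limma adjusted p = 0.428) and without Apc tumour replicate 1 (-0.89) or 7 (-0.94) or ApcTT tumour replicate 7 (-0.92). The rises of Gzmb were lost in males alone (1.17 in both, limma adjusted p = 0.168 and 0.147).

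Of 14 genes of the granule matrix and of mediator synthesis, 4 rose and 3 fell in Apc tumours, 3 rose and 5 fell in ApcTT tumours, and 1 rose between them, Rab27b, a granule-docking GTPase (0.49, limma adjusted p = 0.0477). Hdc, which makes histamine, rose by 4.39 in Apc tumours, from 20.9 to 448 normalized counts, and by 3.60 in ApcTT tumours, to 318 (limma adjusted p = 6.59e-08 and 5.34e-07). Its difference of -0.79 between the tumours did not pass (limma adjusted p = 0.161), so histidine decarboxylase was not called in the comparison in which Cpa3 and the tryptases rose. Tph1, the first enzyme of serotonin synthesis in enterochromaffin and mast cells, fell by 1.93 and 3.02 (limma adjusted p = 0.0012 and 1.08e-05), Ltc4s, which makes leukotriene C4, by 1.44 and 2.09 (limma adjusted p = 0.000884 and 1.65e-05), and Chst15, a sulfotransferase of granule proteoglycan, rose by 0.53 and 0.84 (limma adjusted p = 0.00852 and 0.000162). In Apc tumours the calls of Tph1 and Ltc4s were lost in males alone (-1.03 and -1.13, limma adjusted p = 0.282 and 0.0536), and that of Chst15 in females alone (0.23, limma adjusted p = 0.218) and with the leukocyte covariate (0.36, limma adjusted p = 0.0993).

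Of 13 tested genes among 14 other surface receptors, 7 rose and 2 fell in Apc tumours, 8 rose and 2 fell in ApcTT tumours, and 1 fell between them. Il1rl1, the receptor of interleukin 33, went from 128 to 8218 and 2786, with differences of 5.86 and 4.34 (limma adjusted p = 2.72e-09 and 8.17e-08), and was the one that fell between the tumours, by 1.52 (limma adjusted p = 0.00972); in males alone this was -0.74 and did not pass (limma adjusted p = 0.237). Cd200r3, a receptor of mast cells and basophils, rose by 1.98 and 2.23 (limma adjusted p = 0.000399 and 0.000106), and Csf2rb2, a cytokine receptor chain, by 0.93 and 0.95 (limma adjusted p = 0.000281 and 0.000201). Il9r, the interleukin 9 receptor, fell by 3.03 and 2.19 (limma adjusted p = 4.25e-05 and 0.000924), the latter not in females alone (-1.81, limma adjusted p = 0.0632). Of 14 genes of IgE receptor and Kit signalling, 3 rose and 4 fell, 3 rose and 3 fell, and 1 rose and 3 fell in the 3 comparisons. Plcg1, a phospholipase, rose by 1.23 and 1.45 (limma adjusted p = 1.93e-07 and 1.59e-08), and Gab2, an adaptor, rose by 0.85 in ApcTT tumours (limma adjusted p = 0.000943). The kinases Syk and Btk fell in Apc tumours by 0.65 and 1.27 (limma adjusted p = 0.000184 and 0.00108), Btk not in females alone (-0.50, limma adjusted p = 0.273). They also fell in ApcTT tumours, with differences from wild-type colon of -1.13 and -1.14 (limma adjusted p = 2.49e-07 and 0.00253). Between the tumours Syk differed by -0.48 (limma adjusted p = 0.00518), and did not pass in females alone (-0.31, limma adjusted p = 0.207). Of 9 tested transcription factors among 10, 1 rose and 2 fell in Apc tumours, 4 rose and 1 fell in ApcTT tumours, and Stat5a, a transducer of cytokine signals, rose between them (0.68, limma adjusted p = 0.00548). Bhlhe40 rose by 0.47 and 0.61 over wild-type colon (limma adjusted p = 0.00776 and 0.00105), Spi1 by 0.63 in ApcTT tumours (limma adjusted p = 0.0223), and Cebpa fell by 0.72 in Apc tumours (limma adjusted p = 0.0131). The call of Spi1 was lost in males alone (0.25, limma adjusted p = 0.496) and without wild-type replicate 1 (0.47) or ApcTT tumour replicate 2 (0.52), and that of Cebpa in males alone (-0.73, limma adjusted p = 0.155) and with the distal colon covariate (-0.69, limma adjusted p = 0.0585). Stat5a between the tumours did not pass in males alone (0.39, limma adjusted p = 0.157), nor did Bhlhe40 in Apc tumours in females alone (0.41, limma adjusted p = 0.165).

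Ligands and homing molecules were read beside these. Of 6 tested growth and survival ligands among 10, 3 rose in Apc tumours, 1 rose and 1 fell in ApcTT tumours, and 2 fell between the tumours. Il33, an alarmin that activates mast cells, went from 334 to 2153 in Apc tumours and 534 in ApcTT tumours, rose by 2.47 in the former (limma adjusted p = 0.00434) and fell by 2.15 between the tumours (limma adjusted p = 0.0175). That fall differed by sex, with an effect in males minus that in females of 4.41 (limma adjusted p = 0.000439), and in males alone it was -0.26 (limma adjusted p = 0.619). The rise of Il33 lost its call with the distal colon covariate (1.88, limma adjusted p = 0.0617). Csf2, a growth factor of myeloid cells, rose by 3.36 and 2.10 over wild-type colon (limma adjusted p = 0.000321 and 0.0118), the latter neither in females alone (0.53, limma adjusted p = 0.539) nor without wild-type replicate 5 (1.74, limma adjusted p = 0.0522). Kitl, stem cell factor itself, had 5702, 7446 and 6531 normalized counts and did not pass in any of the 3 (limma adjusted p = 0.421, 0.631 and 0.82). Il9 was listed at 0 in the mean of every group, and Il3, Il4 and Il13 were below the filter. Of 9 homing molecules, 3 rose and 3 fell, 4 rose and 3 fell, and 0 rose and 2 fell in the 3 comparisons. Cxcr2, a chemokine receptor of progenitors and neutrophils, rose by 2.35 and 1.37 (limma adjusted p = 1.69e-07 and 7.58e-05) and fell by 0.98 between the tumours (limma adjusted p = 0.00356). The integrin chains Itga4 and Itgb7, which carry progenitors into the gut, fell by 1.54 and 1.39 in Apc tumours (limma adjusted p = 6.24e-06 and 0.000665). The chemokine Cx3cl1 fell by 0.78 in Apc tumours (limma adjusted p = 0.00106) and by 0.72 between the tumours (limma adjusted p = 0.00357). In ApcTT tumours Itga4, Itgb7 and Cx3cl1 differed from wild-type colon by -1.28, -0.97 and -1.50 (limma adjusted p = 4.2e-05, 0.00985 and 6.81e-07). There Itgb7 did not pass in females alone (-0.98, limma adjusted p = 0.0648). Cx3cl1 did not pass in Apc tumours in males alone (-0.51, limma adjusted p = 0.0717) or between the tumours in females alone (-0.26, limma adjusted p = 0.348), nor Itgb7 in Apc tumours in females alone (-0.69, limma adjusted p = 0.176).

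TGF-beta is known to induce Mcpt1 in mast cells, and Tgif proteins restrain Smad-dependent transcription. Of 14 genes for its ligands, activators, receptors and Smads, 8 rose and 1 fell in Apc tumours, 7 rose and 2 fell in ApcTT tumours, and 2 rose and 1 fell between them. Of all tested genes 23.9% rose and 25.2% fell, 24.8% and 25.5%, and 7.88% and 8.76%, in the same order. Smad3 rose by 0.71 and 1.11 over wild-type colon (limma adjusted p = 2.87e-06 and 7.79e-09) and by 0.40 between the tumours (limma adjusted p = 0.00235), and Tgfbr1, a receptor kinase, by 0.57, 1.01 and 0.44 (limma adjusted p = 0.00415, 1.6e-05 and 0.0332). The call of Tgfbr1 between the tumours was lost with equal totals (0.39, limma adjusted p = 0.0952), the distal colon covariate (limma adjusted p = 0.0585), only the groups compared (limma adjusted p = 0.0565) and each sex alone (0.33 in females, 0.52 in males). It was also lost without any 1 of Apc tumour replicates 1, 5, 6 and 7 or ApcTT tumour replicates 2, 4, 6 and 7 (0.37 to 0.43). In males alone its rise in Apc tumours did not pass (0.61, limma adjusted p = 0.0503), nor did that of Smad3 between the tumours in females alone (0.41, limma adjusted p = 0.0657). Itgav, an integrin chain that activates latent TGF-beta, rose by 1.35 and 0.97 (limma adjusted p = 3.26e-06 and 0.000106). Tgfb1 differed by 0.02 between the tumours (limma adjusted p = 0.954).

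Markers of other cells that share these genes were set beside the results. Basophils also carry Fcer1a and Ms4a2. Their protease genes Mcpt8 and Prss34 reached at most 12.7 and 1.26 normalized counts in any library and were listed at 0 in 3 and 15 of 19, and both were below the filter. The 5 basophil markers other than Fcer1a and Ms4a2 summed to between 70.0 and 103 in wild-type colon, 119 and 343 in Apc tumours and 134 and 395 in ApcTT tumours. Most of this was Gata2, which differed from wild-type colon by 0.78 in Apc tumours (limma adjusted p = 0.0586) and by 0.90 in ApcTT tumours (limma adjusted p = 0.0303). Cd200r3, of the same list, had means of 11.65, 40.41 and 50.1 in the 3 groups. It rose by 1.98 and 2.23 over wild-type colon (limma adjusted p = 0.000399 and 0.000106). Between the tumours neither Gata2 nor Cd200r3 passed (limma adjusted p = 0.84 and 0.704). The part of basophils in the rises of Fcer1a and Ms4a2 was not tested. Of 4 tested eosinophil markers among 8, none rose and 1 fell in each comparison, and Epx, eosinophil peroxidase, reached at most 9.74. Of the 6 leukocyte markers, 4 fell in Apc and 2 in ApcTT tumours against wild-type colon and 0 differed between the tumours. With the leukocyte level as a covariate the rises of Cpa3, Tpsb2, Tpsab1, Fcer1a, Ms4a2 and Cma1 between the tumours were 1.78, 2.42, 3.82, 1.84, 2.28 and 1.26 and kept their calls (limma adjusted p between 0.00485 and 0.0234). This covariate, the mean level of the 6 leukocyte markers, was added after the data were seen. The part of leukocytes in these rises was not tested. None of the 8 smooth muscle markers differed between the tumours.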

How the data were processed

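Poly-A RNA from 19 mice was read from 1 end over 75 bases (the labels' protocols). The deposited table gives a signal per gene and library, counts that the authors scaled. The submitters' processing notes name Salmon, DESeq2 and the build GRCm38 (mm10), and no version; the annotation and strand setting were not stated. Between 84.7% and 88% of low values per library were whole multiples of 1 step within a tolerance of 0.1, too few to recover reads, so a count test was not run.

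Genes with at least 10 normalized counts in at least 5 libraries were tested with limma 3.58.1 (R 4.3.3) after adding 1 and taking log2. The variance prior followed the mean level and was robust; the 19 libraries were fitted together, with group and sex as terms. For sex differences each group had a mean for females and one for males; the effects within each sex and the contrasts of sexes within a group were added after the data were seen. P-values were two-sided and adjusted by the Benjamini-Hochberg method over all tested genes, with a threshold of 0.05. The steps were checked on simulated data. Each library is a separate animal, and the precision of values near 10 is limited by reads of that order.

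The genes and lists were chosen with earlier results of these data known. All 10 genes are named, with up to 4 called genes of smallest p per list and the 10 genes most like Mcpt1 and Mcpt2; markers of other cells are named where they touch a result, and Rab27b, Il3, Il4, Il9, Il13, Kitl and Tgfb1 were named after their values were seen. Values of 2 genes that this rule names are not reported here. Gene models are from GENCODE M21, and promoters from RefSeq. Alternatives changed the pseudocount (0.25 and 5), the filter (none and 50), scaling (equal totals and quantiles), covariates, sexes, groups and moderation, and left out each library; 2 tissue covariates and the sum of paralog pairs were added later.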

Additional observations from a re-analysis of the deposited data

Results flagged for a closer look

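The effect of genotype between the tumours differed between the sexes by test for Mcpt1 (3.32), Mcpt2 (3.55) and Mcpt4 (3.05), as log2 values of the effect in males minus that in females (limma adjusted p = 0.00234, 0.00163 and 0.0259).

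In 30 sets of values (10 genes in 3 groups), 8 had 1 library far from the others by the gap between the extreme value and its neighbour. The limit used is passed by about 1 in 20 sets of independent, normally distributed values. It was applied to normalized counts and not to log2 values, and the sets share libraries. The number flagged is therefore not read against chance. Cma1 had 437.45 in wild-type replicate 5, Kit 1301.38 in wild-type replicate 2 and Tpsab1 11.53 in wild-type replicate 3. Among Apc tumours, replicate 4 stood apart for Tpsb2 (248.91) and Ms4a2 (42.67), and replicate 1 for Tpsab1 (167.67). ApcTT tumour replicate 2 stood apart for Tpsab1 (1582.90) and Kit (710.27).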

How the results depend on the processing

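The number of the 10 genes called as higher kept within 1.5 times of its value in all 3 group comparisons under the planned settings, except between the tumours in females alone, where 1 of the 10 was higher and 0 lower. In females alone Mcpt1, Mcpt2 and Mcpt4 turned to -0.57, -0.72 and -0.31. In Apc tumours against wild-type colon 1 of the 10 was lower, in place of 2, in females alone and with the distal colon covariate. Leaving out each library gave 6 to 7 higher and 2 to 2 lower in Apc tumours, 8 to 8 and 1 to 1 in ApcTT tumours, 6 to 8 and 1 to 1 between the tumours, and 2 to 5 members called as higher (0 to 0 lower) for the sex difference, with the 5 reached without Apc tumour replicate 4. Between the tumours Mcpt1 passed without Apc tumour replicate 1 (1.53) or ApcTT tumour replicate 1 (1.61), and Mcpt2 without the latter (1.59). With the leukocyte covariate 1 of the 10 kept a sex difference, and that of Tpsb2 turned to -0.20. The near-zero difference of Cma1 between ApcTT tumours and wild-type colon turned to 0.12 with equal totals, 0.04 with quantile normalization, 0.00 in females alone, 0.39 with the distal colon covariate and 0.09 with the leukocyte covariate, and to 0.20, 0.05, 0.10 and 0.05 without wild-type replicate 5 or ApcTT tumour replicates 1, 2 or 7; leaving out each library gave -0.16 to 0.20. The cause was not tested. With Tpsb2 and Tpsab1 summed the differences were 3.03, 6.01 and 2.98, and with Mcpt1 and Mcpt2 summed 3.76, 5.08 and 1.32, with the calls of Tpsb2 and Mcpt1. Equal totals moved the median of all genes by up to 0.19 against wild-type colon and changed the calls over all genes there from 4415 higher and 4639 lower to 6169 and 3395 in Apc tumours, and from 4576 and 4708 to 5819 and 3823 in ApcTT tumours. Over all genes, 3039 were lower in Apc tumours in males alone and 2230 higher between the tumours in females alone; the sex difference had 2148 higher and 2204 lower, and 1295 and 1436 without Apc tumour replicate 2, 1423 higher without replicate 3, 1035 and 1094 with the smooth muscle covariate and 1096 and 1011 with the leukocyte covariate. The smooth muscle covariate was also tried against wild-type colon, where no tumour overlaps wild-type colon in that level, so that group and covariate cannot be told apart; it was left out of the alternatives after its result was seen. There limma called 0 of the 10 in either comparison (0 at an unadjusted p under 0.05), and the median SE of the 10 went from 0.564 to 2.79 and 2.95. No paired analysis was possible because the replicate numbers were given in accession order and link no animals across groups. Depth limits Fcer1a, Ms4a2, Tpsab1, Mcpt4, Cpa3 and Tpsb2 in wild-type colon, where they lay at or under about 20.2 normalized counts.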
